A study of Mus musculus with 9 samples.

Results

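The numbered Gpr genes are G protein-coupled receptors and related membrane proteins that were numbered when no ligand was known. They were taken from the deposited table by symbol, as Gpr followed by a number and at most 1 letter, leaving out Gpr34, and 69 of the 24607 genes in the table matched. RNA was sequenced from mouse bone marrow-derived macrophages, which were grown from marrow with M-CSF at 50 ng/ml. The labels give a time of 5 d for every library. There were 3 libraries from macrophages co-cultured with sensory neurons of dorsal root ganglia (DRG), 3 from macrophages given TGF-β at 0.02 ng/ml without neurons, and 3 from macrophages in monoculture. All 9 libraries came from Cx3cr1-gfp/+ cells, in which a GFP reporter replaces 1 Cx3cr1 allele, and all were sorted on CD11b and CD64 before RNA extraction. The design text gives 3 different mice, and whether the 3 cultures of a number share a mouse was not stated. By Y-linked and Xist reads, the main signal was male in replicate 1 of each group and female in replicates 2 and 3. In co-culture the signal was mixed. Y-linked genes summed to 109 and 108 normalized counts in its female replicates 2 and 3, against at most 2.30 in the other female libraries. Xist stood at 222 in its male replicate 1, against 9.77 with TGF-β and 3.25 in monoculture. The source of these reads was not tested.

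G protein-coupled receptors cross the membrane in 7 helices and pass signals from ligands outside the cell to heterotrimeric G proteins, which raise or lower cAMP, release calcium or act on the cytoskeleton. Macrophages and microglia use them to read nucleotides, lipids, metabolites, acid and contact with matrix or other cells. Several numbered receptors have since been given ligands, among them protons, fatty acids and oxysterols, and the adhesion class, with its long outer domains cut near the membrane, now carries Adgr symbols. Others of the 69 remain orphans, and a few numbered Gpr proteins sit in the Golgi or lysosome and are not classical receptors.

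The values are the authors' normalized counts, which are gene reads divided by 1 size factor per library, so they compare a gene between libraries but not genes of different length. Libraries held 46.8 to 309 M reads (M, 1e6), the deepest being co-culture replicate 1, and a single read equalled 0.346 to 2.27 normalized counts. The macrophage genes Csf1r, Itgam (CD11b) and Fcgr1 (CD64) were present in every library, at 79935 to 93742, 97997 to 107329 and 10532 to 12921 in co-culture, 78577 to 92945, 88127 to 90603 and 8551 to 10104 with TGF-β, and 77169.6 to 86449.6, 102238 to 126129 and 10098 to 12236 in monoculture. Of the 7 macrophage markers examined, 2 rose and 1 fell in co-culture against monoculture. Mertk stood at 13103 to 18174 in co-culture and 3002 to 3055 in monoculture, and Emr1 at 51235 to 62747 in co-culture and 77584 to 99767 in monoculture. Co-culture libraries also held transcripts that mark other cells of the ganglion. The 10 fibroblast markers summed to 6315 to 9103 in co-culture, against 21.0 to 100.5 in TGF-β libraries and 34.1 to 105.5 in monoculture, while 3 of the 10 were at 0 in every TGF-β library and 3 in every monoculture library. The 10 Schwann and satellite glia markers summed to 4745 to 5306 in co-culture, a sum that Mbp dominates, against 5758 to 6329 in TGF-β libraries and 6056 to 6938 in monoculture. The glial genes Sox10 and Ngfr stood at 101 to 217 and 209 to 261 in co-culture, against at most 0.775 normalized counts in any TGF-β or monoculture library. The 10 sensory neuron markers, dominated by Uchl1, summed to 532 to 731 in co-culture, against 8092 to 10731 in TGF-β libraries and 8737 to 10039 in monoculture.

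By the main test, most of the measurable numbered Gpr genes were called in co-culture against monoculture, and few with TGF-β. Of the 69 members, 35 had at least 10 normalized counts in at least 3 libraries and were tested, and 34 did not, with no value above 23.3. In co-culture against monoculture 15 members rose, 7 fell and 13 did not pass the test (limma, adjusted p under 0.05 over all 16328 tested genes). That is 62.9% of the tested members, beside 30.8% of all tested genes, of which 15.9% rose and 15% fell. The median size of the log2 fold change was 0.95 over the 35 members and 0.27 over all tested genes. Since 5 members passed the low-count filter only through the co-culture libraries, the count was also made with the filter on the 6 other libraries alone. Then 9 members rose and 7 fell of 30, beside 29.7% called among the 15322 genes then tested (13.9% higher, 15.7% lower). The 5 members tested only through co-culture were Gpr161, Gpr82, Gpr171, Gpr153 and Gpr97, all higher there, and Gpr137c was no longer called. The median of 0.95 over the 35 members includes these 5, with log2 fold changes of 1.12 to 4.52. It was not taken again without them.

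With TGF-β, 2 members rose, 1 fell and 32 did not pass the test, which is 8.57% of the tested members beside 2.52% of all tested genes (1.13% higher, 1.39% lower). These were Gpr84 and Gpr160, which rose, and Gpr126, which fell. With DESeq2, 8 of the 35 members were called with TGF-β, and limma gave 11 an unadjusted p under 0.05. In co-culture against TGF-β, 14 members were higher and 5 lower, 54.3% beside a background of 25.3% (13.4% higher, 11.9% lower). With the filter on the 6 libraries outside co-culture these were 10 higher and 5 lower of 30, beside 23.9% of genes called (11.5% higher, 12.4% lower). Gpr82, Gpr171, Gpr153 and Gpr97 were then not tested. Both comparisons against monoculture use the same 3 monoculture libraries, so they are not independent of each other. In these bulk libraries, fewer cells expressing a gene and less RNA per cell cannot be told apart.

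**Figure D1:**
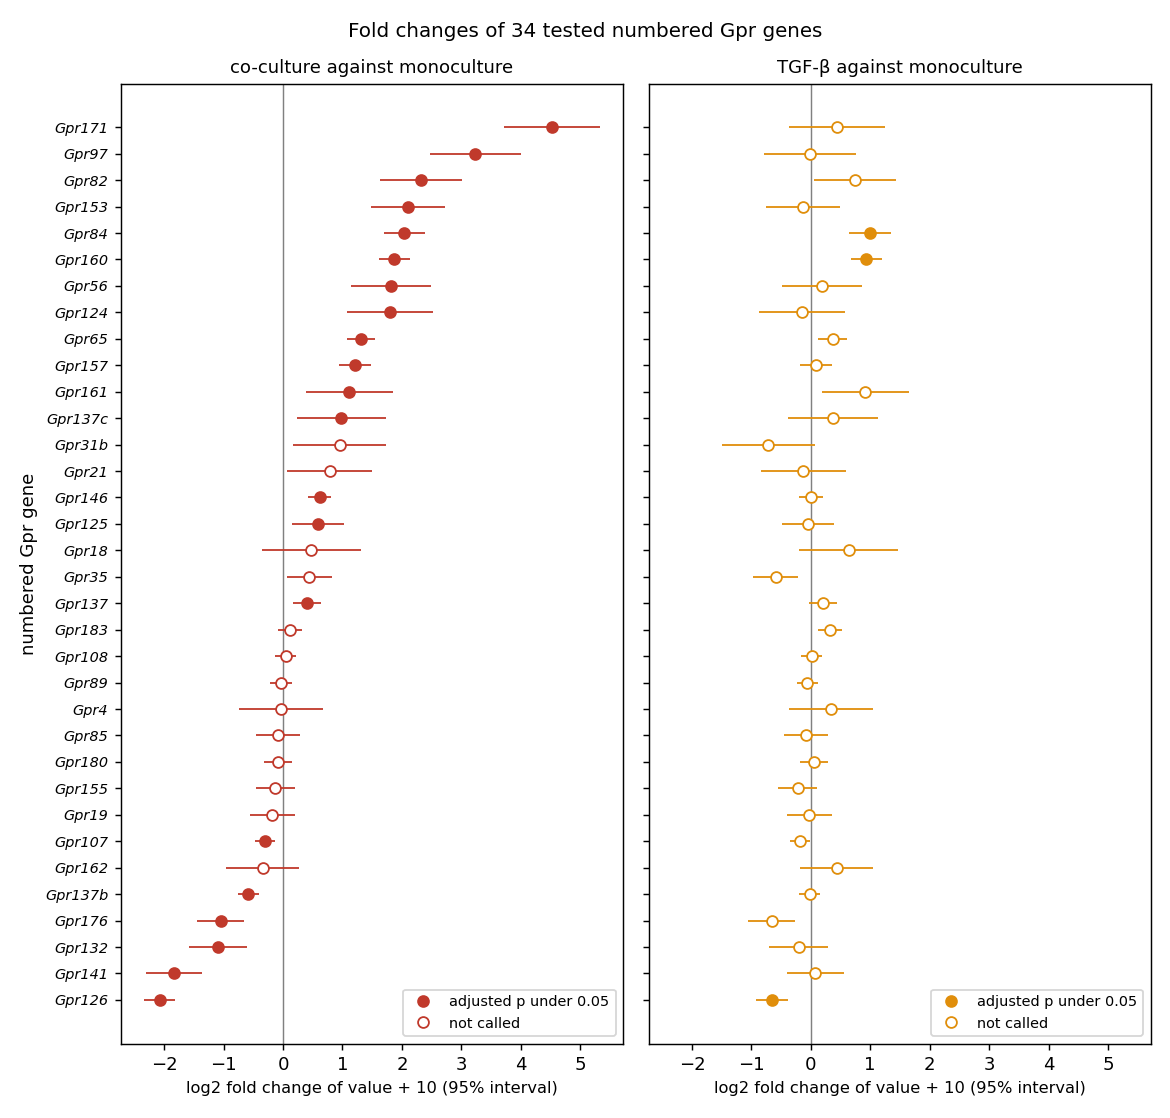
Log2 fold change (of the normalized count plus 10) with its 95% interval for 34 tested numbered Gpr genes, in co-culture against monoculture (left) and with TGF-β against monoculture (right), ordered by the co-culture value. Filled points passed adjusted p under 0.05: 15 higher and 6 lower on the left, 2 higher and 1 lower on the right.

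The 3 members called in both conditions each lay farther from monoculture in co-culture than with TGF-β. Gpr84, a receptor for medium-chain fatty acids that is known from inflammatory macrophages and microglia (ENSMUSG00000063234, chr15:103308235-103310612), had 2635, 2701 and 2311 normalized counts in co-culture, 1148, 1565 and 1039 with TGF-β and 588, 754 and 509.9 in monoculture. No 2 groups overlapped, and the log2 fold change was 2.04 ± 0.16 in co-culture (adjusted p = 3.94e-07) and 1.00 ± 0.16 with TGF-β (adjusted p = 0.00469) against monoculture. Gpr160, an orphan for which the peptide CART has been proposed as a ligand in rats (ENSMUSG00000037661, chr3:30855950-30897192), had 1302, 1348 and 1205 in co-culture, 648, 623 and 729 with TGF-β and 351, 359 and 322 in monoculture. It rose by 1.87 ± 0.12 in co-culture (adjusted p = 4.14e-08) and by 0.93 ± 0.12 with TGF-β (adjusted p = 8.69e-04), and its 3 groups also stood apart. Gpr126 (Adgrg6, ENSMUSG00000039116, chr10:14402583-14545659), an adhesion receptor that Schwann cells need to myelinate axons, went the other way, with 463, 377 and 456 in co-culture, 1093, 1217 and 1193 with TGF-β and 2104, 1798 and 1668 in monoculture. Its log2 fold change was -2.08 ± 0.12 in co-culture (adjusted p = 1.86e-08) and -0.66 ± 0.12 with TGF-β (adjusted p = 0.0112), again with no overlap between groups. Each of the 3 also differed between co-culture and TGF-β, by 1.04 ± 0.16 for Gpr84 (adjusted p = 3.12e-04), 0.94 ± 0.12 for Gpr160 (adjusted p = 5.33e-05) and -1.42 ± 0.12 for Gpr126 (adjusted p = 1.41e-06). The TGF-β call of Gpr126 was lost without TGF-β replicate 1 (adjusted p = 0.0763) or monoculture replicate 1 (adjusted p = 0.057), within a range of 3.38e-05 to 0.304 over its alternatives. With the 2 female libraries per group alone, none of the 3 TGF-β calls held, although Gpr84 still stood at 1.03, adjusted p = 0.127 (range 8.81e-07 to 0.127), Gpr160 at 0.97, adjusted p = 0.0551 (range 6.73e-11 to 0.0551) and Gpr126 at -0.52, adjusted p = 0.304.

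**Figure D2:**
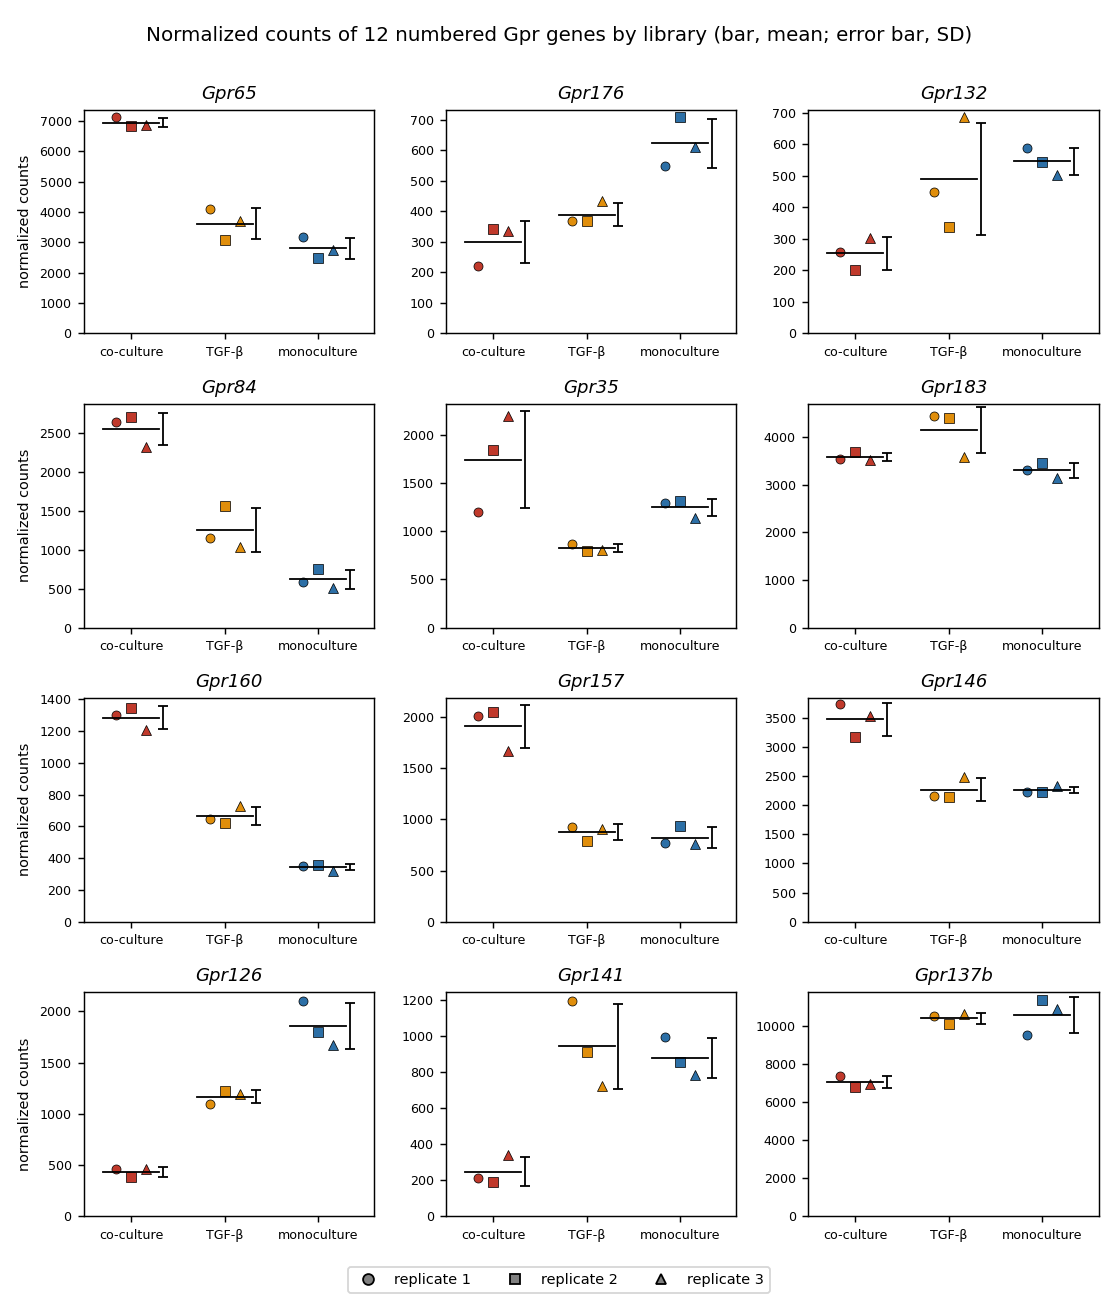
Normalized counts of 12 numbered Gpr genes in each library of co-culture, TGF-β and monoculture; the horizontal bar is the mean and the error bar the SD of 3 libraries, and the marker shape gives the replicate number. Gpr65, Gpr84, Gpr160, Gpr157 and Gpr146 are highest in co-culture, while Gpr176, Gpr132, Gpr126, Gpr141 and Gpr137b are lowest there.

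The promoters of these 3 genes and of Gpr65, the member with the highest level per exon length in co-culture, are shown because these members moved in both conditions or stood highest. Each runs from 250 bases before to 50 after the gene's RefSeq start on GRCm38.p6, and 52 of the 69 members had such an entry. The gene spans printed above come from the GENCODE mouse annotation, whose starts can differ. The Gpr126 window lies inside its printed span, so the bases before the GENCODE start at 14545659 were not searched. The Gpr84 window reaches past its GENCODE start by fewer than 250 bases. Capitals mark the SMAD element CAGAC, or GTCTG where it lies on the other strand, the short sequence bound by the SMAD proteins that carry the TGF-β signal.
Gpr84 promoter, chr15:103310389-103310688, minus strand: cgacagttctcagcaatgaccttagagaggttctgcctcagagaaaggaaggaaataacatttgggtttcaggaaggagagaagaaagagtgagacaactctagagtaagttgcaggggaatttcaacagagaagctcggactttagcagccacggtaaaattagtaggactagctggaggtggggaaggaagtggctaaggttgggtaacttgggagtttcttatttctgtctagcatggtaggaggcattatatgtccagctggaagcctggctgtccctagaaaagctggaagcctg
Gpr160 promoter, chr3:30855700-30855999, plus strand: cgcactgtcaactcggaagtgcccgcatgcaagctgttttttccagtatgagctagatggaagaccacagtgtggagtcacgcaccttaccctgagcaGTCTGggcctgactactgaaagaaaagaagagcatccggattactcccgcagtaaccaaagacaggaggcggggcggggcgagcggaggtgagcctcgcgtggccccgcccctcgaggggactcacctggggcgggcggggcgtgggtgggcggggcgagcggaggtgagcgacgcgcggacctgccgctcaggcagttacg
Gpr126 promoter, chr10:14544987-14545286, minus strand: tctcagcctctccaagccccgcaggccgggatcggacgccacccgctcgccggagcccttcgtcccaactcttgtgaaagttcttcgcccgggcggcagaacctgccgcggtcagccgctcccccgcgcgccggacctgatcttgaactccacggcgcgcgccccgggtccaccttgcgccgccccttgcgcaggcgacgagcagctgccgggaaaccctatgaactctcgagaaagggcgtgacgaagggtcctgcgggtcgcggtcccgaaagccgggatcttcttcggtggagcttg
Gpr65 promoter, chr12:98268385-98268684, plus strand: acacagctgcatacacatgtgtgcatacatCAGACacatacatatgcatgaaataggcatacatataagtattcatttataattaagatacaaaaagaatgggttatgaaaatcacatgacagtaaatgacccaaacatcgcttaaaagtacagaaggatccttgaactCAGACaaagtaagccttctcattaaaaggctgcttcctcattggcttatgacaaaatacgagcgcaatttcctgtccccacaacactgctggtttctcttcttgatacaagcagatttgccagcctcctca
The element occurs 1 time in the Gpr160 window and 2 times in the Gpr65 window, and these letters are not in the Gpr84 and Gpr126 windows. It is short and common: on either strand it was found in 49.59% of all 32851 RefSeq promoter windows and in 47.69% of the 65 windows of numbered Gpr genes. Of the windows of members that rose in co-culture 12 of 20 held it, and of those that fell 2 of 5. The longer SMAD palindrome GTCTAGAC was in 0.213% of all windows and in 0 of the members' windows. The macrophage factor PU.1 binds purine-rich sequence of the type GAGGAAGT (ACTTCCTC on the other strand), which was in 3.2% of all windows, in 4 of the 65 members' windows and in 0 of these 4 windows. The 3 motifs were searched on both strands, and GTCTAGAC reads the same on both.

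Among receptors of the proton-sensing family, Gpr65 rose in co-culture, Gpr132 fell and Gpr4 was not called. Gpr65 is activated by extracellular acid and raises cAMP, Gpr4 is the acid sensor of endothelium, and Gpr132 answers oxidized fatty acids. Gpr65 (ENSMUSG00000021886, chr12:98268635-98276644) had 7138, 6847 and 6859.7 normalized counts in co-culture, 4094, 3077 and 3693 with TGF-β and 3169, 2477 and 2760.1 in monoculture. Co-culture lay above both other groups (1.31 ± 0.11 against monoculture, adjusted p = 5.55e-07; 0.95 ± 0.11 against TGF-β, adjusted p = 2.08e-05), and TGF-β overlapped monoculture (0.37 ± 0.11, adjusted p = 0.112). That last difference passed the test without TGF-β replicate 2, its lowest TGF-β library (0.48, adjusted p = 0.0438), and with DESeq2 (adjusted p = 0.0443, range 0.0438 to 0.391). Gpr132 had 257, 202 and 304 in co-culture, 449, 339 and 686 with TGF-β and 589, 544 and 504 in monoculture, so co-culture lay below both while the TGF-β libraries straddled the monoculture range. Its log2 fold change was -1.09 ± 0.23 against monoculture (adjusted p = 0.00199) and -0.88 ± 0.23 against TGF-β (adjusted p = 0.0106), the second no longer called without co-culture replicate 2 (-0.73, adjusted p = 0.0568, range 5.51e-04 to 0.092). Gpr4 stayed low throughout, at 6.51, 11.2 and 6.86 on average in co-culture, TGF-β and monoculture (-0.04 ± 0.33 in co-culture against monoculture, 95% interval -0.74 to 0.67, adjusted p = 0.95).

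Among receptors for lipids and metabolites, 5 of 7 were tested. Gpr84 was the only one of them called in co-culture against monoculture, beside 30.8% of all tested genes called. Gpr183, the oxysterol receptor that guides immune cells, was among the most abundant members and differed little between groups, with 3553, 3684 and 3524 normalized counts in co-culture, 4449, 4403 and 3591 with TGF-β and 3303, 3468 and 3155 in monoculture. Its log2 fold change was 0.12 ± 0.09 in co-culture (95% interval -0.08 to 0.32, adjusted p = 0.386) and 0.32 ± 0.09 with TGF-β (adjusted p = 0.0963), and the second turned on the low TGF-β replicate 3. Without it Gpr183 passed the test against monoculture (0.42, adjusted p = 0.01), as it did with DESeq2 (adjusted p = 0.0285, range 0.01 to 0.586), and co-culture was lower than TGF-β (-0.30, adjusted p = 0.0122, range 0.0122 to 0.585). Gpr35, which kynurenic acid activates, had 1195, 1839 and 2190.0 in co-culture, 871, 791 and 807 with TGF-β and 1286, 1309 and 1141 in monoculture. Every TGF-β library lay below every library of the other groups, and co-culture was wide, its replicate 1 inside the monoculture range. Gpr35 was higher in co-culture than with TGF-β (1.03 ± 0.17, adjusted p = 6.29e-04), while neither difference from monoculture passed the test (0.44 ± 0.17, adjusted p = 0.0753 in co-culture; -0.59 ± 0.17, adjusted p = 0.105 with TGF-β). Without co-culture replicate 1 both did, at 0.69, adjusted p = 0.00133 in co-culture (range 0.00133 to 0.303) and -0.59, adjusted p = 0.0164 with TGF-β (range 0.0164 to 0.298), and without co-culture replicate 3 the TGF-β difference did (adjusted p = 0.0457). With DESeq2 both passed as well (adjusted p = 0.0287 and 0.0285). Gpr31b, through which Cx3cr1-positive cells of the mouse intestine respond to lactate and pyruvate, was low, with 38.8, 43.8 and 39.2 in co-culture, 3.01, 15.3 and 2.27 with TGF-β and 22.7, 20.7 and 7.75 in monoculture. It was higher in co-culture than with TGF-β (1.67 ± 0.36, adjusted p = 0.00361), and against monoculture missed the test (0.95 ± 0.36, adjusted p = 0.0629), which it passed without TGF-β replicate 2 (adjusted p = 0.0379) and without any TGF-β library (adjusted p = 0.0423, range 0.0379 to 0.207). Gpr18, proposed as a receptor for N-arachidonyl glycine, averaged 11.9, 14.4 and 7.53 in co-culture, TGF-β and monoculture. It was not called in any comparison by the main test. Gpr55, a lysophosphatidylinositol receptor, and Gpr174, a lysophosphatidylserine receptor, never exceeded 4.87 normalized counts and were not tested.

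Of the 31 other members, mostly orphans, 13 were tested. In co-culture against monoculture 7 rose and 2 fell, beside 30.8% of all tested genes called (15.9% higher, 15% lower). Of those that rose, Gpr161, Gpr82, Gpr171 and Gpr153 passed the low-count filter only through the co-culture libraries. Gpr157, which has been described in the cilium of mouse neural progenitors, had 2010.3, 2051 and 1672 in co-culture, 927, 787 and 911 with TGF-β and 769.6, 938 and 757 in monoculture. Gpr146, which affects blood cholesterol through the mouse liver, had 3726, 3171 and 3522 in co-culture, 2152, 2141 and 2488 with TGF-β and 2228, 2229.7 and 2325 in monoculture. In both genes co-culture stood clear of 2 groups that overlapped each other. The co-culture rise was 1.21 ± 0.13 for Gpr157 (adjusted p = 4.31e-06) and 0.61 ± 0.09 for Gpr146 (adjusted p = 1.46e-04). The TGF-β values were 0.09 ± 0.13 (95% interval -0.18 to 0.36) and -0.00 ± 0.09 (95% interval -0.20 to 0.20). Against TGF-β, co-culture was higher by 1.12 ± 0.13 for Gpr157 (adjusted p = 1.44e-05) and by 0.62 ± 0.09 for Gpr146 (adjusted p = 2.02e-04). Gpr141, an orphan of myeloid cells, fell in co-culture, with 211, 189.9 and 338 there, 1192, 911 and 720.4 with TGF-β and 995, 853 and 782 in monoculture. Its co-culture libraries lay below all others (-1.83 ± 0.22 against monoculture, adjusted p = 2.13e-05; -1.91 ± 0.22 against TGF-β, adjusted p = 2.20e-05), and TGF-β left it at 0.08 ± 0.22 (adjusted p = 0.926). Gpr176, an orphan of the circadian clock in the mouse brain, had 220.4, 341 and 336 in co-culture, 367, 367 and 432 with TGF-β and 547, 708 and 609.8 in monoculture, with the TGF-β libraries between the others. It fell in co-culture (-1.05 ± 0.18, adjusted p = 5.16e-04), while the TGF-β value of -0.66 ± 0.18 (adjusted p = 0.0831) passed without co-culture replicate 1 (adjusted p = 0.0481) and with DESeq2 (adjusted p = 0.0159, range 0.0159 to 0.277). Gpr85, a conserved orphan of the brain, stood at 526 ± 37.7, 532 ± 81.1 and 564 ± 128 in co-culture, TGF-β and monoculture (SD, n = 3 each; -0.08 ± 0.17 in co-culture, 95% interval -0.45 to 0.29). Gpr19, Gpr162 and Gpr21 were not called in any comparison by the main test. Gpr21 lies inside Rabgap1 on the same strand, so its reads are uncertain. Some alternatives called members beyond the main ones. With DESeq2, 15 members were higher and 6 lower in co-culture than with TGF-β, and 14 and 5 of these were main calls. The alternatives of Gpr19, Gpr162 and Gpr21 are not reported here by gene.

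Gpr171 and Gpr82 were close to absent outside co-culture. Both passed the low-count filter only through the co-culture libraries, so their p-values for co-culture belong to genes that were picked by their level there. Gpr171, a receptor for the neuropeptide BigLEN in the mouse brain, had 161, 252 and 508 normalized counts in co-culture, 9.77, 6.56 and 4.54 with TGF-β and 4.87, 1.15 and 1.55 in monoculture. Its log2 fold change in co-culture was 4.52 ± 0.38 against monoculture (adjusted p = 4.67e-07) and 4.08 ± 0.38 against TGF-β (adjusted p = 2.21e-06). The co-culture libraries differed among themselves, replicate 3 being highest. The added 10 makes such a fold change small: pooled over libraries, 1552 reads in co-culture against 6 in monoculture gave a ratio of 127 (95% interval 58.0 to 345, counting error only), and 18 reads with TGF-β gave 3.74 (1.42 to 11.5). The TGF-β fold change was 0.44 ± 0.38 with adjusted p = 0.665. Gpr82, an orphan of myeloid cells and a close relative of Gpr34, had 63.8, 37.5 and 43.2 in co-culture, 10.5, 4.37 and 13.6 with TGF-β and 1.62, 1.15 and 1.55 in monoculture, with all 3 groups apart. It rose in co-culture (2.32 ± 0.32, adjusted p = 6.32e-05), was higher there than with TGF-β (1.58 ± 0.32, adjusted p = 0.00215), and with TGF-β missed the test (0.74 ± 0.32, adjusted p = 0.293). Its pooled reads were 297 in co-culture, 22 with TGF-β and 4 in monoculture, ratios of 36.3 (95% interval 14.04 to 134) and 6.85 (2.33 to 27.3) over monoculture.

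Both genes lie beside receptors that microglia express strongly. Gpr171 (chr3:59096448-59101821, minus strand, mm10) is 12.03 kb from P2ry14, 106 kb from P2ry13 and 114 kb from P2ry12, which encode nucleotide and nucleotide-sugar receptors. The whole row is inside the Mediator subunit gene Med12l on the opposite strand. P2ry12 had 5701, 5116 and 4937 in co-culture, 1568, 1249.9 and 1343 with TGF-β and 773, 689.5 and 777 in monoculture. P2ry13 had 3691, 3684 and 2940.1 in co-culture, 639.6, 564 and 509 with TGF-β and 273, 342 and 270.4 in monoculture. Both were highest in co-culture and higher with TGF-β than in monoculture, without overlap. Against monoculture the co-culture and TGF-β log2 fold changes were 2.80 ± 0.11 and 0.88 ± 0.11 for P2ry12 (adjusted p = 3.33e-10 and 5.44e-04) and 3.50 ± 0.14 and 0.93 ± 0.14 for P2ry13 (adjusted p = 5.07e-10 and 0.00285). P2ry14, the nearest of the 3, rose only by 0.40 ± 0.12 in co-culture (adjusted p = 0.0184) and was 0.24 ± 0.12 with TGF-β (adjusted p = 0.382). The host gene Med12l rose in co-culture too (2.76 ± 0.24, adjusted p = 7.07e-07), with 347, 356 and 249 there and 40.6, 35.7 and 37.2 in monoculture. The counting's use of strand is not given in the sources used here, so reads of Gpr171, its P2ry neighbours and Med12l in shared sequence cannot be told apart. Gpr82 (chrX:13661363-13667433, plus strand) lies 20.5 kb from Gpr34, a lysophosphatidylserine receptor, which had 5666, 4649 and 4652 in co-culture, 1066, 673 and 723 with TGF-β and 240.3, 159 and 246 in monoculture (4.49 ± 0.19 and 1.88 ± 0.19 against monoculture, adjusted p = 1.96e-09 and 2.20e-04). The host of both on the opposite strand, Cask, moved the other way (-0.36 ± 0.08 in co-culture, adjusted p = 0.00419).

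**Figure D3:**
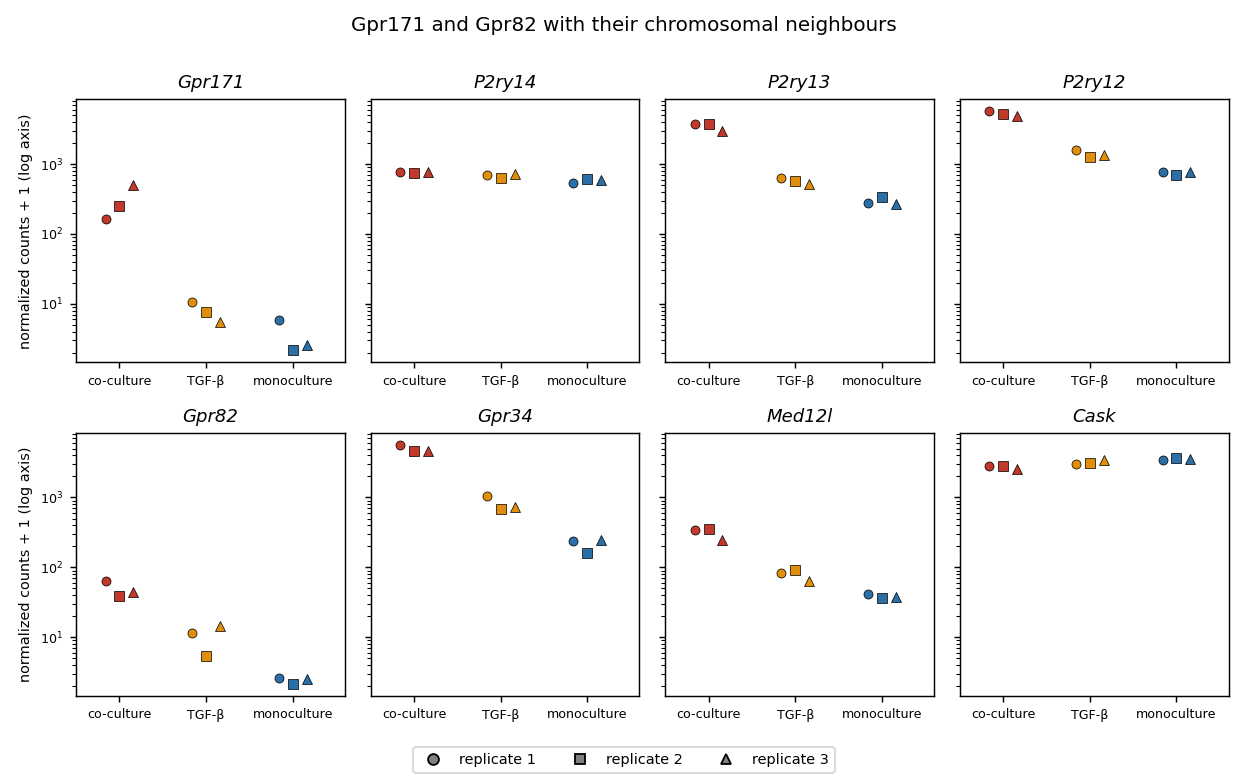
Normalized counts plus 1 (log axis) of Gpr171, its chromosomal neighbours P2ry14, P2ry13 and P2ry12, and its host gene Med12l, and of Gpr82, its neighbour Gpr34 and its host gene Cask, in each library. All 8 genes except P2ry14 and Cask differ severalfold between co-culture and monoculture, and Gpr171 stays under 10 normalized counts in every TGF-β and monoculture library.

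Most adhesion receptors of the set were near 0, and 5 of 16 were tested. Of these, 4 rose and 1, Gpr126, fell in co-culture against monoculture, beside 30.8% of all tested genes called (15.9% higher, 15% lower). Gpr97 passed the low-count filter only through the co-culture libraries. The 4 that rose were low outside co-culture or, for Gpr125, moderate. Gpr97 (Adgrg3), an adhesion receptor of neutrophils, had 131, 119.6 and 203 normalized counts in co-culture, 4.51, 8.74 and 6.82 with TGF-β and 4.87, 17.3 and 1.55 in monoculture. Gpr56 (Adgrg1), which binds collagen III and transglutaminase 2, had 276, 154 and 175 in co-culture, 38.3, 83.0 and 54.5 with TGF-β and 37.3, 63.3 and 46.5 in monoculture. Gpr124 (Adgra2), a Wnt co-receptor of brain vessels, had 80.0, 113 and 91.7 in co-culture, 10.5, 19.7 and 22.7 with TGF-β and 27.6, 9.21 and 27.1 in monoculture. In each of these 3 the co-culture libraries lay above all others and the TGF-β libraries overlapped monoculture. The co-culture rise was 3.23 ± 0.36 for Gpr97 (adjusted p = 7.62e-06), 1.82 ± 0.31 for Gpr56 (adjusted p = 4.43e-04) and 1.80 ± 0.34 for Gpr124 (adjusted p = 8.72e-04). The TGF-β values were -0.01 ± 0.36, 0.19 ± 0.31 and -0.14 ± 0.34, none called. Against TGF-β, co-culture was higher by 3.24 ± 0.36 for Gpr97 (adjusted p = 1.16e-05), 1.63 ± 0.31 for Gpr56 (adjusted p = 0.00143) and 1.94 ± 0.34 for Gpr124 (adjusted p = 6.43e-04). Gpr97 lies 3.47 kb downstream of Gpr56 on chromosome 8. Gpr125 (Adgra3) had 425, 506 and 391 in co-culture, 352, 264 and 229.5 with TGF-β and 253, 363 and 259 in monoculture (0.59 ± 0.20, adjusted p = 0.0385). That call was lost without co-culture replicate 1 or 2 (adjusted p = 0.0855 and 0.163) or monoculture replicate 1 or 3 (adjusted p = 0.117 and 0.109, range 0.0175 to 0.2). Against TGF-β, Gpr125 (0.64 ± 0.20, adjusted p = 0.0313) was likewise lost without co-culture replicate 1 or 2 or TGF-β replicate 2 or 3 (range 0.0181 to 0.145).

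These low genes moved in the libraries that held fibroblast and glial RNA. The orphan Gpr153 was of the same kind, with 74.1, 61.7 and 93.0 in co-culture, 6.76, 6.56 and 11.4 with TGF-β and 9.74, 9.21 and 10.8 in monoculture (2.10 ± 0.29 in co-culture against monoculture, adjusted p = 6.22e-05; 2.24 ± 0.29 against TGF-β, adjusted p = 5.06e-05). Gpr153, like Gpr97 and Gpr161, passed the low-count filter only through the co-culture libraries. Beside these low genes the collagen gene Col1a2 had 1610.1, 2139 and 2203 in co-culture, 9.77, 30.6 and 13.6 with TGF-β and 35.7, 36.8 and 13.9 in monoculture. All 8 tested fibroblast markers rose in co-culture and 0 were called with TGF-β (limma; 0 at unadjusted p under 0.05, and 0 with edgeR or DESeq2). Of the 10 glia markers 7 rose and 2 fell in co-culture. Of 3 tested endothelium markers 2 rose and 1 fell there against monoculture. Pecam1 stood at 245 to 366 in co-culture and 21.1 to 58.1 in monoculture, and Cdh5 at 201 to 256 and 82.1 to 112. Kdr, which fell, stood at 1132 to 1536 and 1856 to 2296. The part of this RNA in the values of Gpr97, Gpr56, Gpr124, Gpr125, Gpr153 and the other members was not tested. Gpr161, a ciliary repressor of Hedgehog signalling, was lower still, averaging 16.3, 12.7 and 2.30 in co-culture, TGF-β and monoculture, and its call in co-culture (1.12 ± 0.34, adjusted p = 0.0228) was lost without co-culture replicate 1 or 3 (adjusted p = 0.0822 and 0.121) or monoculture replicate 1 or 3 (adjusted p = 0.0676 and 0.0715, range 0.0117 to 0.211).

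**Figure D4:**
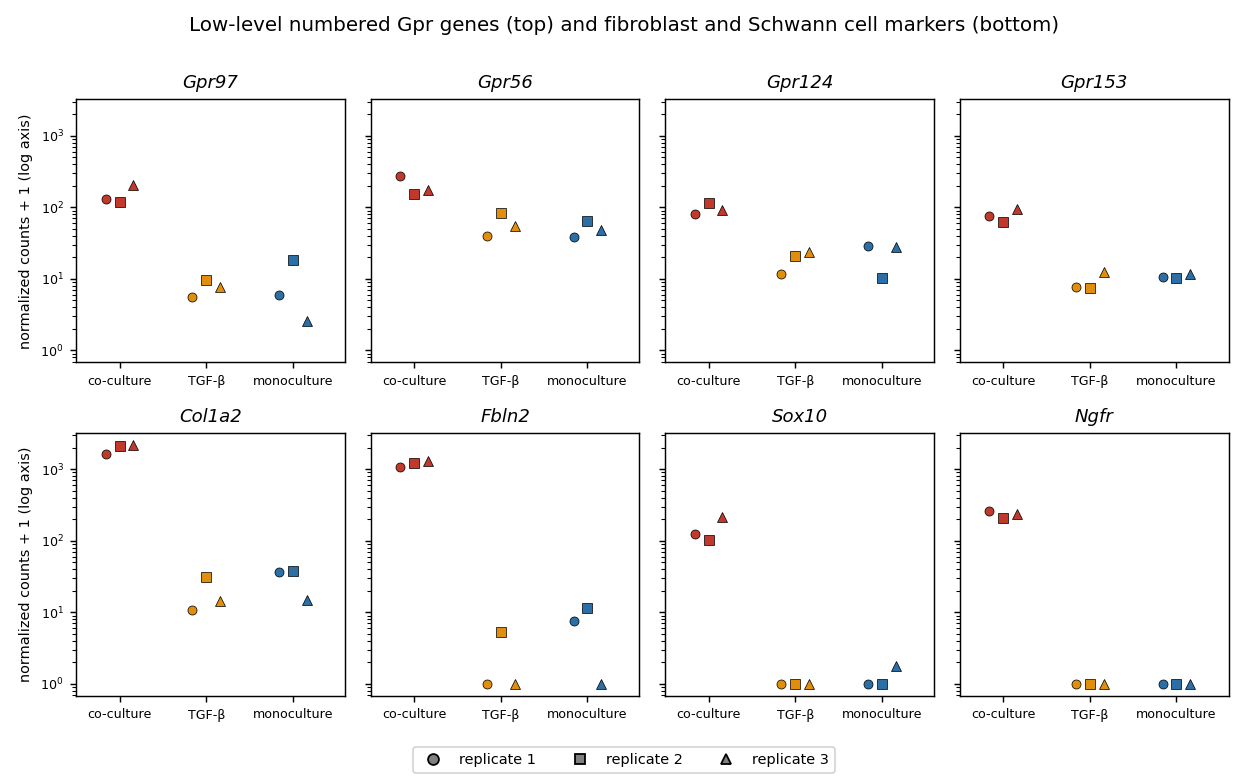
Normalized counts plus 1 (log axis) in each library for 4 numbered Gpr genes that were low outside co-culture (Gpr97, Gpr56, Gpr124 and Gpr153, top) and for the fibroblast markers Col1a2 and Fbln2 and the Schwann cell markers Sox10 and Ngfr (bottom). All 8 are highest in the 3 co-culture libraries, and Ngfr is at 0 in the 6 others.

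Of the numbered Gpr proteins of internal membranes all 8 were tested, and 2 rose and 2 fell in co-culture, beside 30.8% of all tested genes called, while 0 were called with TGF-β (limma; 1 at unadjusted p under 0.05, and 0 with edgeR or DESeq2). Gpr137b, a lysosomal protein that acts on mTORC1 signalling, had 7395, 6793 and 6933 in co-culture, 10556, 10109 and 10638 with TGF-β and 9525, 11390.1 and 10896 in monoculture. Co-culture lay below both other groups, which overlapped (-0.59 ± 0.08 against monoculture, adjusted p = 7.52e-05; -0.57 ± 0.08 against TGF-β, adjusted p = 1.46e-04). Gpr107, of the trans-Golgi network, fell slightly, to 6143 ± 176 in co-culture, against 7584 ± 555 in monoculture (-0.30 ± 0.08, adjusted p = 0.00863). Gpr137, the paralog of Gpr137b, rose to 1160.2 ± 54.3 in co-culture, against 878 ± 87.8 in monoculture (0.40 ± 0.11, adjusted p = 0.0128), and was not called without co-culture replicate 3 (adjusted p = 0.0582) or monoculture replicate 2 (adjusted p = 0.0523, range 0.00272 to 0.0998). The third paralog, Gpr137c, averaged 32.3, 18.2 and 12.3 in co-culture, TGF-β and monoculture, and its call (0.98 ± 0.35, adjusted p = 0.0477) was lost in 15 of 18 alternatives (range 0.0183 to 0.322), among them leaving out any co-culture library, TGF-β replicate 1 or 2, or monoculture replicate 1 or 2. The Golgi proteins Gpr108 and Gpr89, the lysosomal cholesterol sensor Gpr155 and Gpr180, which has been tied to TGF-β signalling in fat cells, were not called in any comparison. Their co-culture values against monoculture were 0.04 ± 0.08 (95% interval -0.14 to 0.22) for Gpr108, -0.03 ± 0.09 (-0.21 to 0.16) for Gpr89, -0.13 ± 0.15 (-0.46 to 0.20) for Gpr155 and -0.09 ± 0.11 (-0.32 to 0.14) for Gpr180. Summed, the 8 genes of internal membranes had 22184 to 23169 normalized counts in co-culture, against 26028 to 26795 in TGF-β libraries and 26796 to 28427 in monoculture. The 61 other members summed to 25349 to 25384 in co-culture, against 18021 to 19051 in TGF-β libraries and 16588 to 17702 in monoculture.

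The order of the members by level also differed between groups. Per kb of exon, Gpr65 led in co-culture at 3358 ± 79.4 normalized counts per kb (SD, n = 3), followed by Gpr84 at 1478 ± 121, Gpr137b at 1401 ± 62.7, Gpr183 at 1242 ± 29.6 and Gpr108 at 1159 ± 21.9, and of these neighbours Gpr84 and Gpr137b overlapped. With TGF-β the first was Gpr137b at 2076 ± 56.6 per kb, then Gpr65 at 1750.1 ± 248 and Gpr183 at 1437 ± 167, which overlapped each other, and Gpr108 at 1137 ± 93.9. In monoculture Gpr137b led at 2109.8 ± 192 per kb, then Gpr65 at 1354 ± 168, Gpr183 at 1146 ± 54.4 and Gpr108 at 1125 ± 39.0, the last 3 overlapping their neighbours in the order. Gpr84 was the second by level per kb in co-culture, number 6 with TGF-β (725 ± 161) and number 8 in monoculture (358 ± 72.3).

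**Figure D5:**
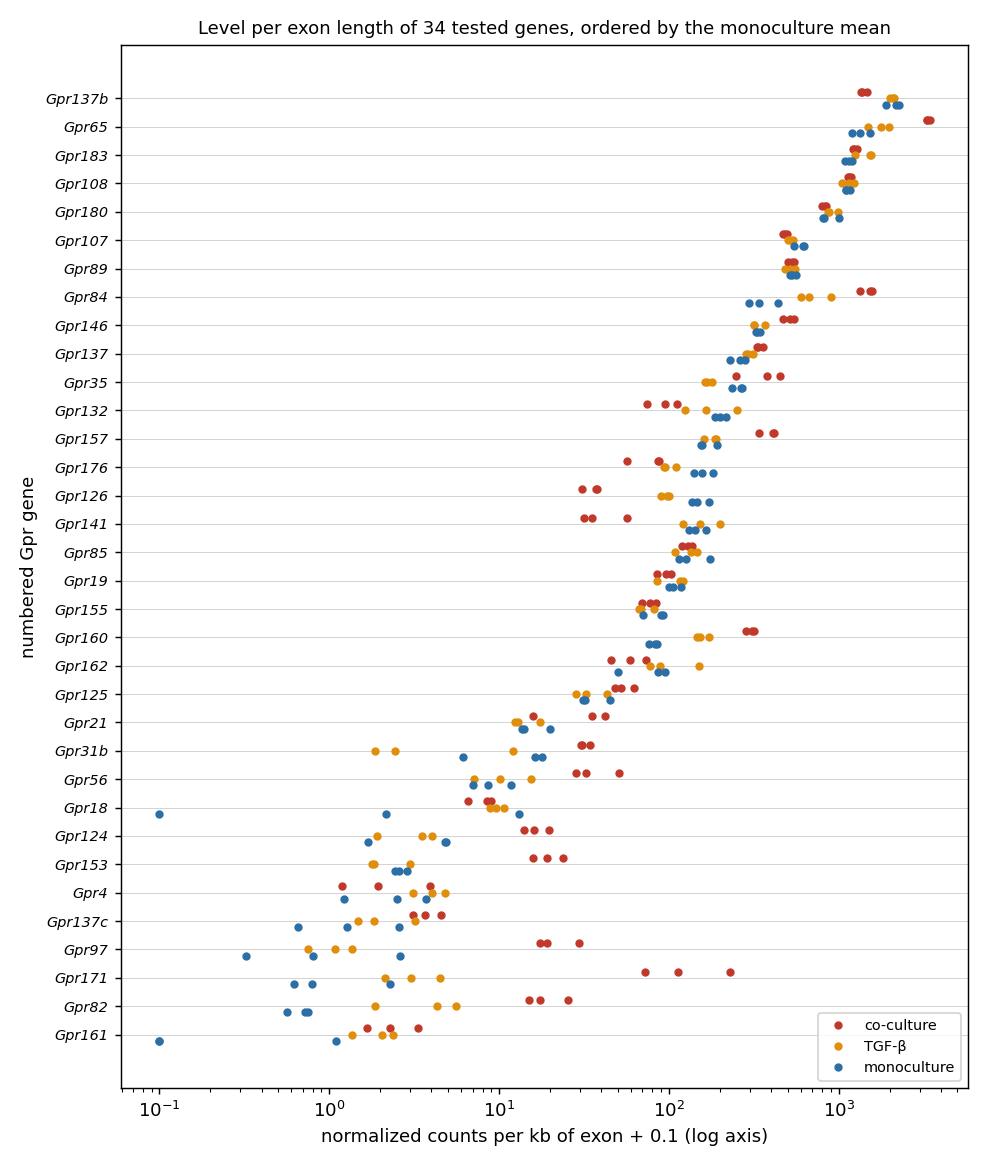
Normalized counts per kb of exon plus 0.1 (log axis) of 34 tested numbered Gpr genes in each library of co-culture, TGF-β and monoculture, ordered by the monoculture mean. The co-culture points of Gpr65, Gpr84 and Gpr171 lie far to the right of their monoculture points.

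The rest of the pathway was read from 3 further lists of named genes, beside the backgrounds given above. Of 41 tested genes of the transduction machinery, 11 rose and 9 fell in co-culture (median log2 fold change -0.05, 0.03 over all genes), and 2 rose and 1 fell with TGF-β. The G protein γ subunit gene Gngt2 rose in both, to 4533 ± 351 in co-culture and 2161 ± 424 with TGF-β, against 927 ± 105 in monoculture (2.28 ± 0.14 and 1.20 ± 0.14, adjusted p = 1.97e-08 and 3.47e-04). The receptor kinase gene Grk5 fell in both, to 736 ± 53.3 in co-culture and 1868 ± 133 with TGF-β, against 2597 ± 163 in monoculture (-1.81 ± 0.10 and -0.47 ± 0.10, adjusted p = 9.69e-09 and 0.0224). The β subunit gene Gnb4 (-1.94 ± 0.12, adjusted p = 3.63e-08) and the G protein regulator Rgs18 (-1.32 ± 0.10, adjusted p = 2.47e-07) fell in co-culture and were not called with TGF-β. Of 12 tested named receptors for lipids and metabolites, 4 rose and 4 fell in co-culture (median -0.25), and 0 were called with TGF-β (limma; 4 at unadjusted p under 0.05, 0 with edgeR and 1 with DESeq2). The niacin and hydroxybutyrate receptor Hcar2 (1.52 ± 0.31, adjusted p = 0.00167) and the lysophosphatidic acid receptor Lpar6 (0.79 ± 0.14, adjusted p = 4.15e-04) rose, whereas Lpar1 (-1.61 ± 0.23, adjusted p = 7.55e-05) and the platelet-activating factor receptor Ptafr (-0.89 ± 0.12, adjusted p = 3.34e-05) fell. Of 9 tested adhesion receptors with names of their own, 2 rose and 2 fell in co-culture (median 0.29), and 0 were called with TGF-β (limma; 3 at unadjusted p under 0.05, 0 with edgeR and 2 with DESeq2). The latrophilin genes Lphn1 (2.27 ± 0.38, adjusted p = 3.48e-04) and Lphn3 (adjusted p = 2.96e-06) rose. Lphn2 (-1.11 ± 0.09, adjusted p = 3.54e-07) and Emr1, which encodes F4/80 (-0.69 ± 0.11, adjusted p = 2.26e-04), fell. Lphn3 stood at 86.2 ± 27.7 normalized counts in co-culture and at 0 in every monoculture library. It passed the low-count filter only through the co-culture libraries, so its p-value belongs to a gene picked by its level there.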

How the data were processed

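A stranded SMART-Seq kit was used on 10 ng RNA per library, per the labels' protocols. The submitters' processing notes name bcl2fastq 2.20, STAR 2.7.3, DESeq2 1.24.0, R 3.6.1 and build mm10, without roles. The counting program, its use of strand and any filter are not given in the sources used here. The authors deposited 1 signal value per gene and library (the unit called normalized counts). Every value was a whole multiple of 1 read's worth (100% within 0.05), that is gene reads divided by 1 size factor. All columns were matched to samples (0 left over), and a gene without any read has no row. Identifiers were matched to the GENCODE mouse annotation on the same build (24335 of 24607, all 69 members, 16 of them under a changed symbol).

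The test was limma 3.58.1 (trend, robust), run in R 4.3.3 on log2 values after adding 10, for genes with at least 10 in at least 3 libraries, all 9 libraries in 1 fit with group as the only term. Adjustment was by Benjamini-Hochberg over all tested genes, with calls at adjusted p under 0.05. Only called genes are said to have risen or fallen. Each log2 fold change stands with its standard error from the fit, each level with its SD over 3 libraries. The script was checked on simulated counts. Alternatives were another pseudocount, other filters, edgeR 4.0.16 and DESeq2 1.42.0 on the recovered reads (100% of values whole), a replicate block, 2 groups only, each library left out, and 2 added after the data were seen: a filter on the 6 libraries outside co-culture, and female libraries only.

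Named with values are members called in any comparison, in full where a group mean reached 50, the 6 uncalled members of highest level, and 4 genes of smallest p from each named list. Chromosomal neighbours, Gpr4, Gpr18, Gpr19, Gpr21, Gpr162, Gpr55 and Gpr174 are named to complete a class or a locus. Some members are counted in the totals but not reported here by name. The members and lists were chosen with earlier results of these data known. Nothing says that the libraries of a group came from separate cultures beyond the 3 mice, so p-values measure the spread between these samples. Intervals on read ratios cover counting error only.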

Additional observations from a re-analysis of the deposited data

How the results depend on the processing

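Counts of members called were compared over 19 alternatives, and no called value changed sign in any. Against monoculture, the count of members higher in co-culture was 15, and 9 with the low-count filter on the 6 other libraries alone, where 30 members were tested and all 9 were among the 15. The count of members higher with TGF-β was 2, against 4 with DESeq2 and 0 with female libraries only. The count lower with TGF-β was 1, against 4 with DESeq2, 2 with the 2 groups compared alone and 0 with female libraries only, where limma gave 7 of the tested members an unadjusted p under 0.05. The count higher in co-culture than with TGF-β was 14, against 9 with female libraries only, which have 2 libraries per group; all 9 were among the 14.

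Leaving out 1 library at a time gave 12 to 15 members higher and 7 in every case lower in co-culture against monoculture, 2 to 3 higher and 0 to 3 lower with TGF-β, and 12 to 14 higher and 4 to 6 lower in co-culture against TGF-β. The count lower with TGF-β was 0 without TGF-β replicate 1 or monoculture replicate 1, 3 without co-culture replicate 1, and 2 without co-culture replicate 3 or TGF-β replicate 3.

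Of the 22 members called in co-culture against monoculture, 17 kept their call in every alternative that tested them, as did 14 of 19 in co-culture against TGF-β and 0 of 3 with TGF-β. The cause of the lost calls was not tested. With female libraries only, Gpr107 lost its call in co-culture (adjusted p = 0.127, range 0.00147 to 0.127), and Gpr82 and Gpr56 lost theirs against TGF-β (adjusted p = 0.0687, range 0.00266 to 0.0687, and 0.0556, range 1.15e-05 to 0.0556).

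With the replicate number as a block the counts were 15 higher and 7 lower in co-culture against monoculture, 2 and 1 with TGF-β, and 14 and 5 in co-culture against TGF-β, the same genes as without it. Deviations of same-numbered libraries from their group means correlated between -0.15 and 0.37, and not every library correlated best with its own number. With so few libraries per group this check is weak, and replicate 1 was the male library in every group. Whether same-numbered libraries share a mouse was not settled by it, and the main test did not pair the samples.

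The 34 members under the low-count filter were tested only in the alternative without a filter. There 16 members were higher in co-culture than in monoculture, 13 of them among the 15; the other 3 were Gpr173 (adjusted p = 0.0372), Gpr133 (adjusted p = 0.0455) and Gpr116 (adjusted p = 0.00599), all without a read in monoculture. Against TGF-β, Gpr173 was also gained (adjusted p = 0.0444). A gene at 0 reads in a library has an upper limit of 3 reads (95% confidence), which is 1.04 to 6.82 normalized counts across libraries.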

Other observations

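Of the members without a read in any monoculture library, 10 in all and none of them past the low-count filter, 5 had reads in all 3 co-culture libraries. Gpr116 (Adgrf5), an adhesion receptor of lung epithelium and endothelium, had 26, 10 and 15 reads in co-culture and 9, 1 and 0 with TGF-β. Gpr39, a zinc-sensing receptor, had 6, 9 and 35 reads in co-culture and 0, 6 and 3 with TGF-β. Gpr133 (Adgrd1) had 6, 5 and 2 reads, Gpr173 6, 2 and 5 reads, and Gpr64 (Adgrg2) 6, 2 and 2 reads in co-culture, and each had 0 in all TGF-β libraries. Gpr15, a homing receptor of lymphocytes, had 33, 0 and 2 reads in co-culture and 0 in all TGF-β libraries, so nearly all of its reads came from co-culture replicate 1, the deepest library. The co-culture libraries held 134 to 309 M reads (M, 1e6), against 46.8 to 152 M in TGF-β libraries and 73.4 to 136 M in monoculture, and the part of depth and of other cells' RNA in these few reads was not tested.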
